A study of Mus musculus with 24 samples.

Results

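The unfolded protein response and the integrated stress response were followed through 10 genes in mouse mammary fat. The genes are Hspa5, Hsp90b1, Dnajb9, Herpud1, Xbp1, Atf4, Ddit3, Trib3, Chac1 and Asns. They were taken from the deposited count table, which held 39017 genes, by symbols mapped from its Ensembl identifiers, and all 10 were found. The tissue was subcutaneous fat from the 4th mammary position in C57BL/6 mice, snap frozen. Total RNA underwent a DNase step, and ribosomal RNA was removed before library making.

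The 24 libraries formed 6 groups of 4: HFD peritumoral, Chow peritumoral, HFD contralateral, Chow contralateral, HFD no-tumor and Chow no-tumor. HFD and Chow are the labelled diets, and the series design speaks of obese and lean mice. Peritumoral fat lay near a breast tumor, contralateral fat came from the other side, and no-tumor fat carries the label of no tumor. The sample titles mark all peritumoral libraries L and all contralateral and no-tumor libraries R. If these letters mean left and right, nearness to the tumor cannot be told apart from body side. The labels used here give no transgene, tumor cell line, sex or age. Nor do they state that each library of a group is another mouse. The p-values then reflect only how these libraries scatter, which may be technical.

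The endoplasmic reticulum (ER) folds secreted and membrane proteins. When unfolded proteins build up there, 3 sensors act. IRE1 (gene Ern1) splices the Xbp1 mRNA, ATF6 is cut to release a transcription factor, and PERK (Eif2ak3) phosphorylates eIF2α. Other kinases phosphorylate eIF2α as well, on amino acid shortage, double-stranded RNA or heme shortage, and the shared arm is called the integrated stress response. It slows translation and favours that of ATF4, a factor that switches on amino acid supply genes and, when stress lasts, the death-linked factor CHOP (Ddit3). Gene counts do not show the splicing of Xbp1 or the translation of Atf4, so the levels below are total mRNA of each gene.

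Promoter sequences come first because the chaperone genes, the degradation gene and the ATF4 targets are known to answer through different DNA elements. Windows from 250 bases before to 50 bases after each RefSeq start (GRCm38.p6, a patch of mm10) were searched on both strands for 4 motifs. The ER stress element ERSE, CCAAT and CCACG with 9 bases of any kind between them, is bound by ATF6 together with NF-Y. It was found in 39 of 32851 windows (0.119%), among them those of Hspa5 and Hsp90b1. ERSE-II, ATTGG and CCACG with any 1 base between them, lay in 12 windows (0.0365%), 1 of them that of Herpud1. The C/EBP-ATF response element CARE, TGATGNAA, an ATF4 site, lay in 1304 windows (3.97%), among them those of Herpud1, Trib3, Chac1 and Asns. The element UPRE, TGACGTGG, a site of XBP1, lay in 222 windows (0.676%) and in 0 of the 10 members' windows. No match in a member's window overlapped another. A match is a run of letters and not a measured binding site. In the sequences below, in the direction of the gene, capitals mark the fixed letters of the matches, read on either strand.
Hspa5, chr2:34772010-34772059, plus strand, with ERSE: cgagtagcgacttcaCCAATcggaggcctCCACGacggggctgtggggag
Hsp90b1, chr10:86705520-86705669, minus strand, with ERSE on each strand: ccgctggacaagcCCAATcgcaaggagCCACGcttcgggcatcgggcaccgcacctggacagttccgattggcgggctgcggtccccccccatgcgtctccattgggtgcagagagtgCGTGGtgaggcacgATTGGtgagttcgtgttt
Herpud1, chr8:94386304-94386403, plus strand, with CARE and then ERSE-II: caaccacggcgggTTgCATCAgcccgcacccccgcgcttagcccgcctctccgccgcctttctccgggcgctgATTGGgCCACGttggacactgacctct
Chac1, chr2:119351037-119351071, plus strand, with CARE: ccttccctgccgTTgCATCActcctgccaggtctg
Asns, chr6:7693210-7693249, minus strand, with CARE: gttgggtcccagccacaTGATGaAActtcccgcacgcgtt

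In position, the Hspa5 match spans bases -65 to -47 from the start, and those of Hsp90b1 span -212 to -194 and -107 to -89. The ERSE-II of Herpud1 spans -52 to -42, and its CARE -112 to -105. CARE lies at -193 to -186 in Chac1 and at -23 to -16 in Asns. In Trib3 it lies after the RefSeq start, at bases 15 to 22, and is not printed. The printed stretches of Hspa5 and Asns lie before the RefSeq start but within the counted gene spans given below.

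The libraries held between 9.13 and 18.2 M counts, with Chow peritumoral replicate 4 the shallowest. On the first principal component of log2 CPM, which held 38.4% of the variance, the 4 HFD peritumoral libraries lay between 48.1 and 85.6 and every other library at 33.3 or below. In Chow contralateral replicate 2 the single gene Gm42418 took 11.4% of counts, against 0.0212% to 0.9% in the other Chow contralateral libraries. Adipocyte markers (Adipoq, Plin1, Fabp4, Lipe and Cidec) were high everywhere, with summed levels from 5590 to 13100 CPM, as the tissue label says. CPM, the usual depth-scaled read count, was scaled with TMM factors over the 24 libraries. Differences are given on the log2 scale ± SE. Tests are edgeR's quasi-likelihood tests, and a gene was called at a Benjamini-Hochberg adjusted p below 0.05 over all genes tested. In bulk tissue, fewer cells of a type and less RNA per cell cannot be told apart.

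The 10 genes covered a wide range of levels. Per kilobase of exon, and averaged over all libraries, the ER chaperones Hsp90b1 and Hspa5 stood highest at 85.9 and 85.3 CPM per kb, followed by Xbp1 at 51.5 and Atf4 at 45.2. Herpud1 stood at 28.4, Asns at 17.9, Dnajb9 at 14.9, Ddit3 at 5.47, Chac1 at 3.46 and Trib3 at 1.91 CPM per kb. The depth behind them differs accordingly. Hspa5 had 2343 to 8925 reads per library, whereas Trib3 had 15 to 152, Chac1 29 to 141 and Ddit3 65 to 199.

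**Figure D1:**
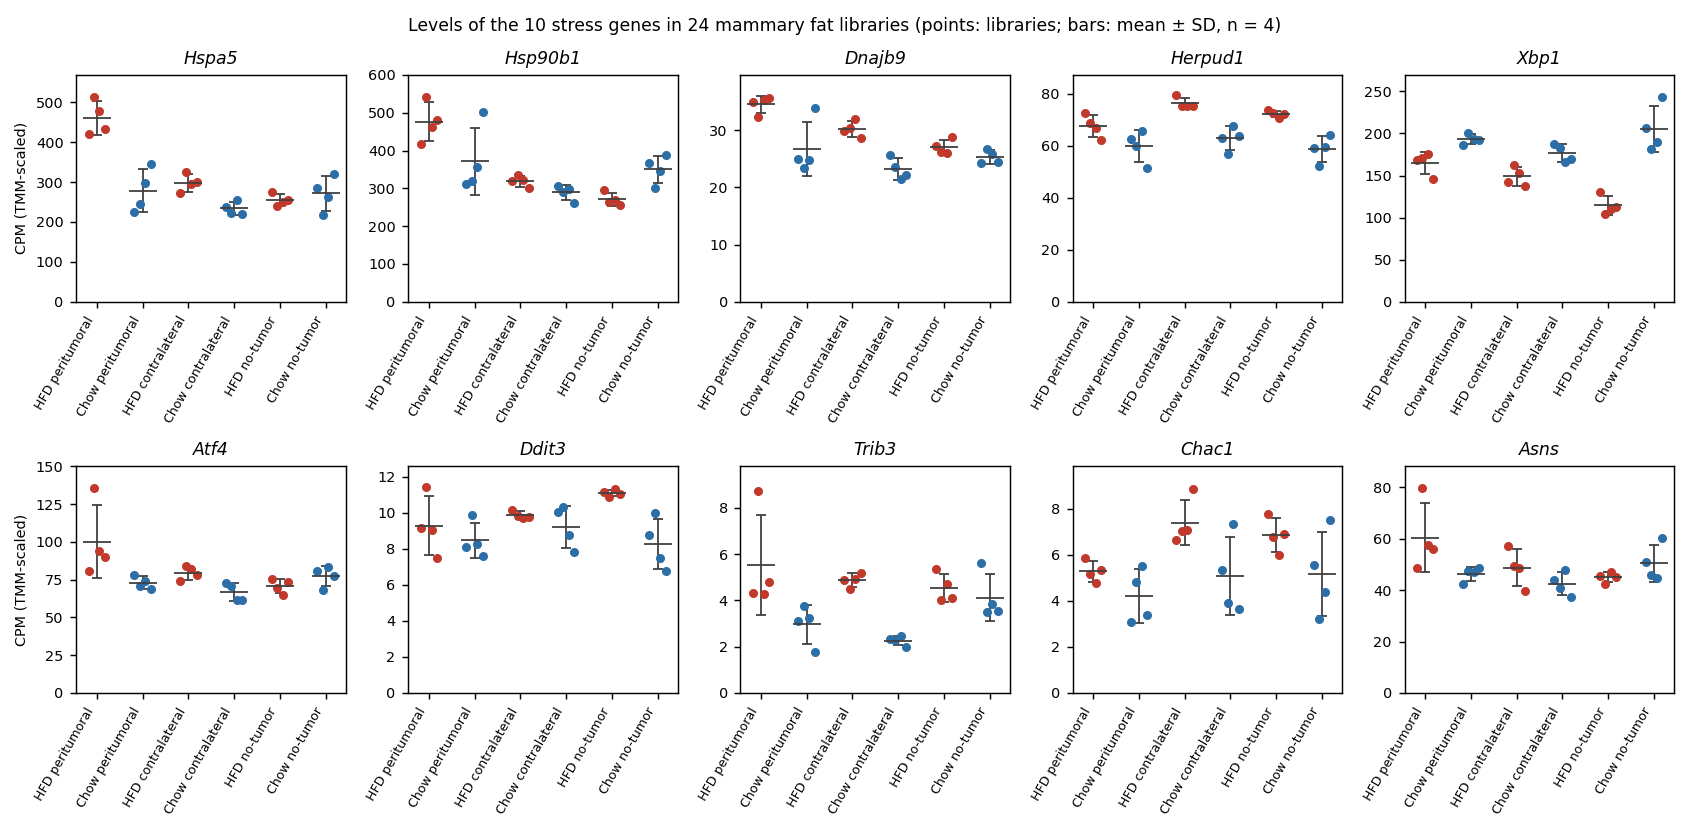
Levels of the 10 genes in every library, in CPM scaled with TMM factors (y axis, linear, starting at 0). Groups lie along the x axis (red HFD, blue Chow), with points for libraries and bars for the mean ± SD of 4. Hspa5 in HFD peritumoral fat lies between 420.5 and 513 CPM, above every other library, while Xbp1 is lower in HFD than in Chow libraries at each position.

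The ER chaperones Hspa5 and Hsp90b1 were highest in HFD peritumoral fat. Hspa5 (ENSMUSG00000026864; mm10, chromosome 2, 34771970 to 34776531, plus strand, exon length 3513) encodes BiP, the main chaperone of the ER lumen and the protein that holds the 3 sensors inactive. Peritumoral levels were 420.5, 513, 477.7 and 432.5 CPM in HFD libraries, against 225.4, 246.3, 296.8 and 345.7 CPM in Chow libraries. Contralateral levels were 271.5, 325.5, 296.3 and 299.2 CPM on HFD, against 237.2, 223.5, 256.4 and 219.2 CPM on Chow. No-tumor levels were 275.1, 240.3, 249.4 and 255.1 CPM on HFD, against 286.5, 218.1, 262.2 and 321.6 CPM on Chow. The 4 HFD peritumoral libraries lay above the other 20, and the HFD and Chow libraries overlapped in no-tumor fat only.

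Hspa5 rose in HFD peritumoral over HFD contralateral fat by 0.64 ± 0.10 (adjusted p = 0.00296), and in HFD over Chow peritumoral fat by 0.68 ± 0.15 (adjusted p = 0.00805). In contralateral fat it rose on HFD by 0.31 ± 0.07 (adjusted p = 0.00341). In no-tumor fat the diet difference was -0.08 ± 0.10 (adjusted p = 0.595). Ordered by group mean, HFD peritumoral fat came first at 460.9 ± 42.6 CPM (SD, n = 4), then HFD contralateral, Chow peritumoral, Chow no-tumor, HFD no-tumor and Chow contralateral fat, the last at 234.1 ± 16.7 CPM. Below the first place, the libraries of each group overlapped those of its neighbour.

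Hsp90b1 (ENSMUSG00000020048; mm10, chromosome 10, 86690209 to 86705509, minus strand, exon length 4032) encodes GRP94, the HSP90 of the ER. Near the tumor it reached 418.3, 542.1, 463 and 480 CPM on HFD, against 311.7, 318.4, 356.2 and 500.7 CPM on Chow. On the other side it reached 318.4, 335.5, 321.5 and 300.3 CPM on HFD, against 307.3, 291.2, 297.7 and 261 CPM on Chow. Without a tumor it reached 295.8, 262.6, 270.2 and 257.1 CPM on HFD, against 365.7, 301.5, 344.7 and 387.4 CPM on Chow. Chow peritumoral replicate 4 was as high as the HFD peritumoral libraries, and in no-tumor fat the order of the diets was the opposite of that near the tumor.

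Within HFD, Hsp90b1 rose in peritumoral over contralateral fat by 0.59 ± 0.10 (adjusted p = 0.00422), with no overlap of libraries. It fell on HFD in no-tumor fat by 0.35 on the log2 scale (SE 0.08, adjusted p = 0.00589). That call was lost when all 24 libraries shared 1 fit, at -0.32 (adjusted p = 0.0609). In peritumoral fat the diet difference of 0.31 ± 0.17 missed the threshold (adjusted p = 0.168), but it was 0.50 (adjusted p = 0.0158) without Chow peritumoral replicate 4 and 0.39 (adjusted p = 0.00785) in the fit of all 24 libraries. Part of the gene's exons, 10.293%, is shared with 1810014B01Rik on the opposite strand, and whether counting used strand is not stated in the sources. The 2 chaperones moved together within groups as well. Their deviations from the group means had r = 0.86 over the 24 libraries, the highest of the 45 pairs of members, a description over libraries that share depth and cell makeup. Chow peritumoral replicate 4 was the highest of its group in both genes.

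**Figure D2:**
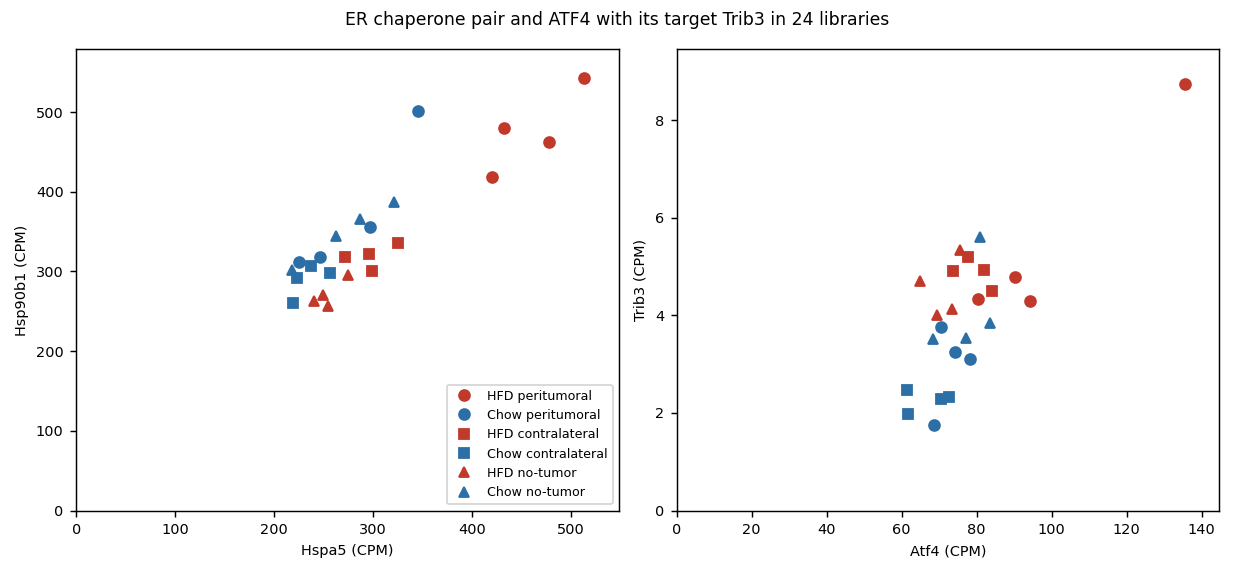
Left, Hsp90b1 (y axis, CPM) against Hspa5 (x axis, CPM), and right, Trib3 against Atf4, in the 24 libraries (red HFD, blue Chow; circles peritumoral, squares contralateral, triangles no-tumor fat). HFD peritumoral libraries lie at the upper right on the left panel, and HFD peritumoral replicate 2 stands alone on the right panel at 135.5 CPM of Atf4 and 8.736 CPM of Trib3.

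Dnajb9 (ENSMUSG00000014905; mm10, chromosome 12, 44205897 to 44210068, minus strand, exon length 1865) encodes ERdj4, a J-domain partner of BiP and a target of spliced XBP1. The peritumoral libraries gave 34.86, 32.3, 35.36 and 35.65 CPM on HFD, against 24.9, 23.46, 24.86 and 33.81 CPM on Chow. The contralateral libraries gave 29.89, 30.31, 32.01 and 28.63 CPM on HFD, against 25.71, 23.65, 21.4 and 22.25 CPM on Chow. In no-tumor fat its means were 27.0 ± 1.28 CPM on HFD and 25.3 ± 1.21 CPM on Chow (SD, n = 4), and the libraries overlapped. Dnajb9 rose on HFD in contralateral fat by 0.34 ± 0.07 (adjusted p = 0.00265). In peritumoral fat its diet difference of 0.33 ± 0.13 missed the threshold (adjusted p = 0.0676), but it was 0.47 (adjusted p = 0.00656) without Chow peritumoral replicate 4, the highest Chow library, and 0.41 (adjusted p = 0.000705) in the fit of all 24 libraries. Between HFD peritumoral and HFD contralateral fat the libraries did not overlap, but the difference of 0.20 ± 0.07 was not called (adjusted p = 0.0532). DESeq2 gave 0.0379 there, and without HFD peritumoral replicate 2 the difference was 0.24 (adjusted p = 0.0434).

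Herpud1 was called for diet at 2 of 3 positions and in no comparison of tumor side. The gene (ENSMUSG00000031770; mm10, chromosome 8, 94386438 to 94395377, plus strand, exon length 2333) encodes HERP, an ER membrane protein that organises the degradation complex around the ligase HRD1. The no-tumor libraries gave 73.76, 72.64, 70.89 and 72.24 CPM on HFD, against 59.21, 52.25, 59.38 and 64.21 CPM on Chow. Contralateral levels were 79.57, 75.25, 75.47 and 75.25 CPM on HFD, against 63.14, 56.75, 67.77 and 63.88 CPM on Chow. Peritumoral levels were 72.52, 68.91, 66.98 and 62.16 CPM on HFD, against 62.74, 59.76, 65.55 and 51.59 CPM on Chow. The diets did not overlap in no-tumor and contralateral fat, and overlapped in peritumoral fat.

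Herpud1 rose on HFD by 0.31 ± 0.06 in no-tumor fat (adjusted p = 0.00327) and by 0.24 ± 0.06 in contralateral fat (adjusted p = 0.00509). Its diet difference in peritumoral fat was 0.13 ± 0.10 (adjusted p = 0.309), and 0.21 (adjusted p = 0.0136) in the fit of all 24 libraries. Unlike both chaperones, its level in HFD peritumoral fat lay below that in HFD contralateral fat, by -0.17 ± 0.07 (adjusted p = 0.0847), with no overlap of libraries. Without HFD peritumoral replicate 1 that difference was -0.20 (adjusted p = 0.0395).

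Xbp1 was lower on HFD at every position. The gene (ENSMUSG00000020484; mm10, chromosome 11, 5520659 to 5525893, plus strand, exon length 3248) encodes the transcription factor whose mRNA IRE1 splices, a driver of secretory capacity. No-tumor levels were 131, 104.4, 110.3 and 112.9 CPM on HFD, against 206.4, 181.6, 189.5 and 243.1 CPM on Chow. On the other side it reached 142.3, 163, 153.2 and 137.5 CPM on HFD, against 187.7, 182.9, 165.6 and 170 CPM on Chow. Near the tumor it reached 168.4, 170.9, 175.4 and 145.3 CPM on HFD, against 186.9, 200.7, 193.9 and 192.6 CPM on Chow. The diets did not overlap at any position, and the gap was widest in no-tumor fat.

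Xbp1 fell on HFD in no-tumor fat by 0.83 on the log2 scale (SE 0.09, adjusted p = 7.97e-05). It fell by 0.28 (SE 0.07, adjusted p = 0.00513) in contralateral fat and by 0.27 (SE 0.09, adjusted p = 0.0488) in peritumoral fat. The last call was lost with any 1 of the 8 libraries left out, at -0.30 to -0.22 (adjusted p from 0.0522 to 0.137), and also with no low-count filter (-0.23, 0.173) and in the fit of all 24 libraries (-0.19, 0.0638). Within HFD it was higher in contralateral than in no-tumor fat by 0.35 ± 0.08 (adjusted p = 0.019). This call was lost without HFD contralateral replicate 3 (0.34, adjusted p = 0.0512) and without HFD no-tumor replicates 2 (0.31, 0.0598), 3 (0.34, 0.0702) or 4 (0.35, 0.0507). Mammary epithelium markers (Epcam, Krt8, Krt18, Krt5 and Krt14) moved with the diet too. Their summed level in no-tumor fat was 286 to 312 CPM on HFD and 345 to 595 CPM on Chow. In contralateral fat it was 160 to 216 CPM on HFD and 344 to 396 CPM on Chow. In peritumoral fat it was 63.4 to 245 CPM on HFD and 320 to 387 CPM on Chow. Of the 5 markers, 2 fell on HFD in no-tumor, 5 in contralateral and 4 in peritumoral fat. Fewest fell in no-tumor fat, where Xbp1 fell most. Plasma cell markers, whose cells depend on XBP1, summed to 31.3 to 42 CPM in HFD and 31.9 to 73.7 CPM in Chow no-tumor fat. The part of these cells in the Xbp1 levels was not tested.

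IRE1's own gene was lower on HFD at each position, next to Xbp1. Ern1 stood at 39.3, 34.1, 31.6 and 35.9 CPM in HFD no-tumor libraries, against 89.1, 56.5, 74.8 and 73 CPM in Chow no-tumor libraries. The contralateral libraries gave 37.3, 36.2, 36.9 and 33.6 CPM on HFD, against 85.5, 69.4, 69.6 and 68.8 CPM on Chow. The peritumoral libraries gave 38.2, 37.8, 39.2 and 36.3 CPM on HFD, against 84.9, 57.9, 78.6 and 63.5 CPM on Chow. No HFD library reached the lowest Chow library. Ern1 fell on HFD by 1.05 (SE 0.12, adjusted p = 0.000146), 1.06 (SE 0.08, adjusted p = 2.15e-06) and 0.95 (SE 0.13, adjusted p = 0.000944) on the log2 scale in the same order of positions.

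Atf4 (ENSMUSG00000042406; mm10, chromosome 15, 80255184 to 80257540, plus strand, exon length 1724) encodes the main factor of the integrated stress response, which is controlled mostly in translation. Peritumoral levels were 80.45, 135.5, 94.2 and 90.24 CPM on HFD, against 78.22, 70.6, 74.21 and 68.56 CPM on Chow. Contralateral levels were 73.82, 84.23, 81.87 and 77.82 CPM on HFD, against 72.76, 70.58, 61.52 and 61.77 CPM on Chow. In no-tumor fat its means were 70.9 ± 4.74 CPM on HFD and 77.5 ± 6.71 CPM on Chow (SD, n = 4), and the libraries overlapped. The diets did not overlap near the tumor or on the other side, and 1 library, HFD peritumoral replicate 2, lay far above the rest.

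Atf4 rose on HFD in contralateral fat by 0.22 ± 0.07 (adjusted p = 0.0241), a call lost in the fit of all 24 libraries (0.26, adjusted p = 0.0712). It was also lost without Chow contralateral replicates 3 (0.17, 0.0725) or 4 (0.18, 0.0675) and without HFD contralateral replicates 2 (0.19, 0.0615) or 3 (0.20, 0.0585). The diet difference in peritumoral fat, 0.42 ± 0.15, missed the threshold (adjusted p = 0.0529). It was called at 0.50 (adjusted p = 0.000942) in the fit of all 24 libraries, at 0.45 (adjusted p = 0.0277) with no low-count filter, at 0.42 by DESeq2 (adjusted p = 0.0398) and at 0.52 (adjusted p = 0.0173) without HFD peritumoral replicate 1. Over all fits with a library left out, this difference ran from 0.23 to 0.52. Between HFD peritumoral and HFD contralateral fat Atf4 differed by 0.34 ± 0.15 (adjusted p = 0.107). The call there was made at 0.35 (adjusted p = 0.016) in the fit of all 24 libraries and at 0.44 (adjusted p = 0.0281) without HFD peritumoral replicate 1. With a library left out, that difference ran from 0.17 to 0.44.

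Trib3 showed the largest diet difference of the 10 genes in contralateral fat. It (ENSMUSG00000032715; mm10, chromosome 2, 152337422 to 152344032, minus strand, exon length 2125) encodes a pseudokinase induced by ATF4 and CHOP that also binds AKT. On the other side it reached 4.901, 4.488, 4.924 and 5.2 CPM on HFD, against 2.318, 2.289, 2.469 and 1.982 CPM on Chow. Near the tumor it reached 4.329, 8.736, 4.285 and 4.781 CPM on HFD, against 3.096, 3.757, 3.253 and 1.755 CPM on Chow. Without a tumor it reached 5.336, 4.014, 4.71 and 4.121 CPM on HFD, against 5.602, 3.511, 3.852 and 3.527 CPM on Chow. The diets were apart in contralateral and peritumoral fat and overlapped in no-tumor fat, and the Chow contralateral libraries were the lowest group.

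In contralateral fat Trib3 rose on HFD by 1.07 ± 0.15 (adjusted p = 0.000138), and leaving out any library kept the difference between 1.01 and 1.11. In peritumoral fat it rose by 0.84 ± 0.29 (adjusted p = 0.0473). Without HFD peritumoral replicate 2 the peritumoral difference was 0.52 (adjusted p = 0.132), and without replicate 4 it was 0.90 (0.0687). That call was also lost without Chow peritumoral replicates 1 (0.85, 0.107), 2 (0.96, 0.0602), 3 (0.87, 0.0873) or 4 (0.68, 0.0904), and with a filter at 1 CPM (0.82, 0.052). On Chow, Trib3 fell in contralateral relative to no-tumor fat by 0.83 (SE 0.19, adjusted p = 0.0285). The call was lost without any 1 of the 4 Chow contralateral libraries (-0.87 to -0.77, adjusted p from 0.0558 to 0.0761). It was also lost without Chow no-tumor replicates 1 (-0.65, 0.0587) or 3 (-0.86, 0.0609).

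Chac1 (ENSMUSG00000027313; mm10, chromosome 2, 119351229 to 119354381, plus strand, exon length 1637) encodes an enzyme that breaks down glutathione and is induced by ATF4. In HFD fat it stood at 5.847, 5.173, 4.767 and 5.326 CPM in peritumoral libraries, against 6.656, 7.009, 7.079 and 8.834 CPM in contralateral libraries. Every peritumoral library lay below every contralateral library, and Chac1 fell there by 0.48 (SE 0.14, adjusted p = 0.0297), the opposite direction of the chaperones. The call was lost without HFD peritumoral replicates 2 (-0.46, 0.0523), 3 (-0.43, 0.0758) or 4 (-0.48, 0.0634) and without HFD contralateral replicates 2 (-0.50, 0.0579), 3 (-0.50, 0.0605) or 4 (-0.38, 0.0788). It was also lost with no low-count filter (-0.49, 0.0532) and in the fit of all 24 libraries (-0.47, 0.0953). The Chow contralateral libraries were spread from 3.645 to 7.339 CPM. The diet difference in contralateral fat, 0.50 ± 0.20, missed the threshold (adjusted p = 0.056). It was called at 0.74 (adjusted p = 0.0053) without Chow contralateral replicate 3, at 0.55 (0.0325) with no low-count filter and at 0.55 (0.048) in the fit of all 24 libraries. In no-tumor fat the diet difference was 0.42 ± 0.21 (adjusted p = 0.176), and 0.65 (adjusted p = 0.025) without Chow no-tumor replicate 4.

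Ddit3 (ENSMUSG00000025408; mm10, chromosome 10, 127290774 to 127296288, plus strand, exon length 1713) encodes CHOP. The no-tumor libraries gave 11.15, 10.9, 11.32 and 11.07 CPM on HFD, against 8.785, 9.972, 7.506 and 6.793 CPM on Chow. The HFD libraries were tightly grouped above all Chow libraries, and Ddit3 rose by 0.44 ± 0.12 (adjusted p = 0.0192). The call was lost without Chow no-tumor replicates 3 (0.39, 0.0589) or 4 (0.35, 0.0536) and without HFD no-tumor replicate 3 (0.43, 0.0522). In contralateral fat Ddit3 stood at 9.88 ± 0.199 CPM on HFD and 9.23 ± 1.16 CPM on Chow, and in peritumoral fat at 9.29 ± 1.62 CPM on HFD and 8.47 ± 0.97 CPM on Chow (SD, n = 4 each). The libraries overlapped in both, with adjusted p of 0.626 and 0.681. Ddit3 was called in no comparison of tumor side or tumor bearing. Of its exon bases, 3.97% are shared with Mars on the opposite strand.

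Asns (ENSMUSG00000029752; mm10, chromosome 6, 7675169 to 7693254, minus strand, exon length 2735) encodes asparagine synthetase, a standard readout of ATF4 and amino acid shortage. It passed the test in 0 of the 9 comparisons. The peritumoral libraries gave 48.57, 79.66, 57.45 and 56.1 CPM on HFD, against 42.24, 47.28, 47.02 and 48.44 CPM on Chow. The diets did not overlap there, replicate 2 was again the highest HFD library, and the difference was 0.35 ± 0.14 (adjusted p = 0.0842). It was called at 0.43 (adjusted p = 0.00736) in the fit of all 24 libraries and at 0.45 (adjusted p = 0.0253) without HFD peritumoral replicate 1. Over all fits with a library left out, the difference ran from 0.18 to 0.45. Means in contralateral fat were 48.7 ± 7.07 CPM on HFD and 42.5 ± 4.43 CPM on Chow, and in no-tumor fat 45.0 ± 1.86 CPM on HFD and 50.4 ± 7.21 CPM on Chow (SD, n = 4 each). Without HFD contralateral replicate 4, the lowest of its group, the diet difference of 0.16 ± 0.11 in contralateral fat became 0.25 (adjusted p = 0.0312).

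**Figure D3:**
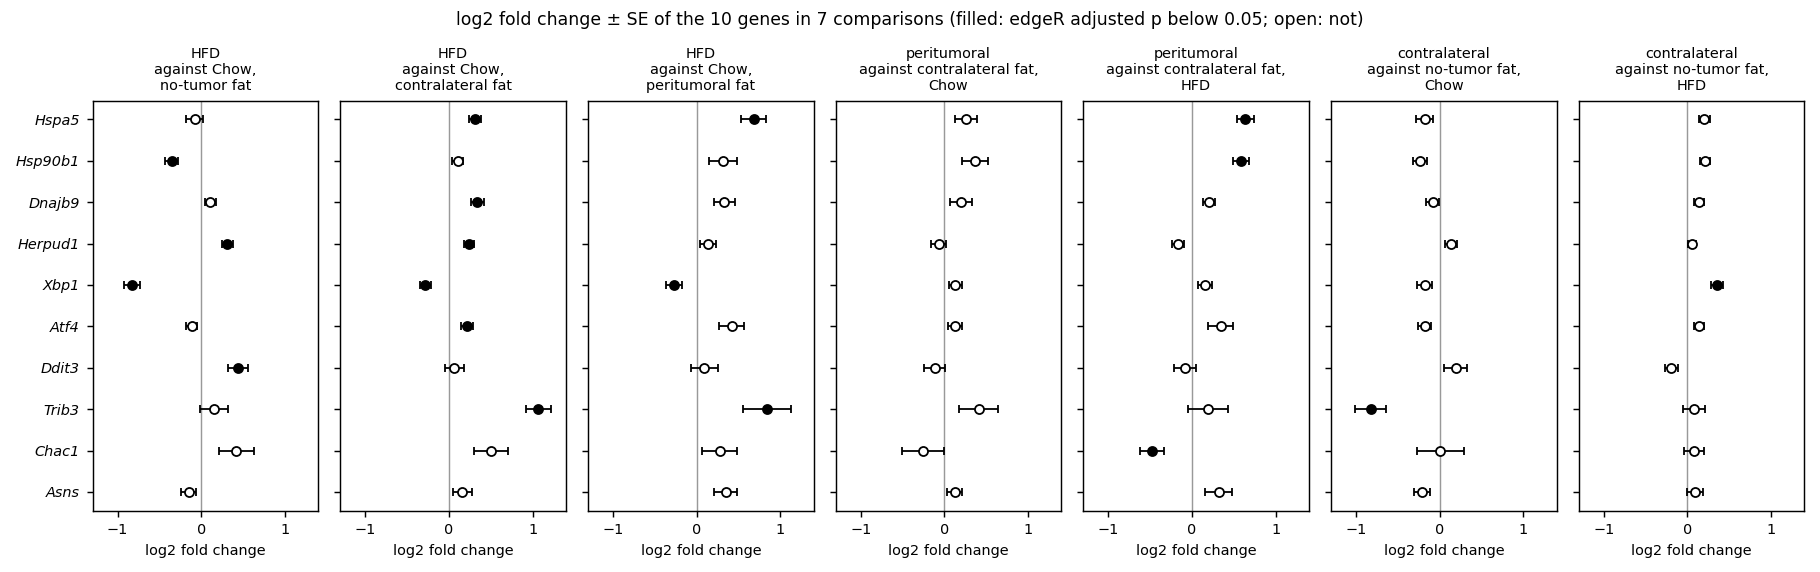
log2 fold change ± SE (x axis) of the 10 genes (rows) in 7 comparisons (panels), with filled points where edgeR's adjusted p was below 0.05. Hspa5 and Hsp90b1 lie furthest right for peritumoral against contralateral fat on HFD, at 0.64 and 0.59, and Xbp1 lies left of 0 in the 3 diet panels.

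The counts of members called are read against the share of all genes called in the same comparison. For diet, 4 of 10 members were called in no-tumor fat (2 higher, 2 lower), against 24.9% of 15827 genes (13.6% higher, 11.3% lower). In contralateral fat 6 of 10 were called (5 higher, 1 lower), against 49.3% of 15913 genes (24.5% higher, 24.8% lower), and in peritumoral fat 3 of 10 (2 higher, 1 lower), against 33.6% of 15919 genes (16.4% higher, 17.2% lower). For tumor side on HFD 3 of 10 were called (2 higher, 1 lower), against 29.5% of 15627 genes (16.8% higher, 12.7% lower). Adipocyte markers summed to 11500 to 13100 CPM in HFD and 6410 to 7380 CPM in Chow contralateral fat, where 5 of 5 rose. Skeletal muscle markers summed to 46 to 76.9 CPM in HFD and 67 to 3610 CPM in Chow contralateral fat. Of these, 4 of 5 fell, with a list median of -7.65. Also there, 5 of 5 mammary epithelium, 1 of 4 endothelium and 1 of 4 tested plasma cell markers fell. Cycling markers rose in 2 of 4, and macrophage markers rose in 3 of 5 and fell in 1. The part of these cells in the members' levels was not tested. The shares of members called lie near those of all genes, and in contralateral and peritumoral fat 9 of the 10 fold changes for diet were above 0. The median over members for diet was 0.01 in no-tumor, 0.23 in contralateral and 0.32 in peritumoral fat, beside -0.02, -0.01 and 0.02 over all genes tested.

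For tumor side on Chow, edgeR called 0 of the 10 members and 0% of 16057 genes. At an unadjusted p below 0.05 it found 1 member, Hsp90b1 (0.37 ± 0.15, adjusted p = 0.561), and 1381 genes, and DESeq2 called 0 members and 19 genes. Skeletal muscle markers were spread widely within both groups, at 67 to 3610 CPM in Chow contralateral and 30 to 1950 CPM in Chow peritumoral libraries. The part of this spread in the result was not tested. The 4 Chow peritumoral libraries of Hsp90b1 lay above the 4 Chow contralateral ones, while for Hspa5 the same groups overlapped (279 ± 53.9 CPM against 234 ± 16.7 CPM, SD, n = 4). For contralateral against no-tumor fat, 1 of 10 members was called on Chow (Trib3, lower), against 7.95% of 15946 genes (4.93% higher, 3.02% lower). On HFD 1 of 10 was called (Xbp1, higher), against 6.08% of 15718 genes (2.72% higher, 3.37% lower). Comparisons that share a group, such as diet in contralateral fat and side on HFD, share its 4 libraries and are not independent.

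Whether the effect of tumor side differed by diet was tested as an interaction, the HFD difference minus the Chow difference. It was called for 0 of 10 members and 0% of 16859 genes by edgeR. At an unadjusted p below 0.05 edgeR found 1 member, Hspa5, at 0.41 ± 0.17 (adjusted p = 0.194), and 3349 genes. DESeq2 called 0 members and 727 genes. The higher Hspa5 near the tumor on HFD is therefore not shown to differ from the 0.26 ± 0.13 (adjusted p = 0.582) seen on Chow.

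The interaction of diet with bearing a tumor on the other side took contralateral minus no-tumor fat on HFD, minus the same difference on Chow. It was called for 5 of 10 members, all positive, against 19.9% of 16676 genes called (9.94% positive, that is higher, and 9.94% lower). Trib3 had 0.92 ± 0.22 (adjusted p = 0.00907), Xbp1 0.55 ± 0.12 (0.0062), Hsp90b1 0.46 ± 0.10 (0.00573), Hspa5 0.40 ± 0.13 (0.0356) and Atf4 0.34 ± 0.10 (0.0273). For all 5 genes the contralateral mean was above the no-tumor mean on HFD and below it on Chow. Hsp90b1, for example, averaged 319 ± 14.5 CPM in contralateral and 271 ± 17.1 CPM in no-tumor fat on HFD, and 289 ± 20 CPM in contralateral and 350 ± 36.6 CPM in no-tumor fat on Chow (SD, n = 4 each). With all 24 libraries in 1 fit, only Xbp1 of the 5 stayed below the threshold, and the other four had adjusted p of 0.0646 (Trib3), 0.0775 (Hsp90b1), 0.115 (Hspa5) and 0.167 (Atf4). Leaving out single libraries ended the calls of Hspa5 and Atf4 and no other of the 5. Hspa5 lost its call without any 1 of Chow contralateral replicates 1, 2 or 4, HFD contralateral replicates 2, 3 or 4, Chow no-tumor replicates 1 or 4, or HFD no-tumor replicates 2, 3 or 4, at 0.31 to 0.38 (adjusted p from 0.0502 to 0.081). Atf4 lost it without Chow contralateral replicates 3 or 4, HFD contralateral replicates 2 or 3, Chow no-tumor replicates 1 or 3, or HFD no-tumor replicates 2 or 3, at 0.28 to 0.32 (adjusted p from 0.0525 to 0.068). Skeletal muscle markers, a sign of other tissue in the sample, summed to 67 to 3610 CPM in Chow contralateral fat, against 46 to 76.9 CPM in HFD contralateral fat. In this interaction 0 of 5 were called, but their list median was -2.82. Of the other lists, 4 of 4 endothelium markers were called negative (list median -0.62), and 4 of 5 adipocyte (0.41) and 3 of 5 macrophage markers (0.66) positive, with 1 of 5 mammary epithelium and 1 of 5 plasma cell markers negative. The part of these cells in the members' interaction was not tested.

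Other genes of the pathway were counted in 6 lists. Of the ER chaperones and folding enzymes, 14 of 18 rose and 0 fell in HFD peritumoral over HFD contralateral fat, with a list median of 0.48 beside -0.02 over all genes. Of all genes tested there, 16.8% were higher and 12.7% lower. Manf, a secreted ER protein that binds BiP, stood at 42.2, 50.3, 47.1 and 40.2 CPM in HFD peritumoral libraries, against 25.3, 30.6, 25 and 28.1 CPM in HFD contralateral libraries, and rose by 0.73 ± 0.10 (adjusted p = 0.00174). The disulfide isomerases Pdia6 and Pdia4 rose by 0.68 ± 0.09 (adjusted p = 0.0015) and 0.66 ± 0.09 (adjusted p = 0.00137). Among the others, and picked after their values were seen, the ER stress targets Sdf2l1 and Creld2 rose by 0.72 ± 0.13 and 0.66 ± 0.14, and the oxidase Ero1l by 0.97 ± 0.24 (adjusted p = 0.0173). Dnajc3, Ero1lb, Sil1 and Fkbp2 did not pass. Leaving out any 1 library kept the count of those higher at 14. The count of those lower was 1 without HFD peritumoral replicate 1 and in the fit of all 24 libraries.

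For diet, 0 of the 18 genes of the same list rose in no-tumor fat and 7 fell, beside 13.6% and 11.3% of all genes. The list median was -0.18. Txndc5 fell by 0.42 (SE 0.07, adjusted p = 0.00108), Pdia4 by 0.43 (SE 0.10, adjusted p = 0.00652) and Hyou1, a large BiP-related chaperone, by 0.37 (SE 0.09, adjusted p = 0.0119). Markers of endothelium (Cdh5, Pecam1, Kdr and Vwf) summed to 639 to 661 CPM in HFD and 360 to 397 CPM in Chow no-tumor fat, and 4 of 4 rose. Of the other lists there, 3 of 4 cycling, 3 of 5 adipocyte and 1 of 4 plasma cell markers rose, and 3 of 5 fibroblast, 2 of 5 mammary epithelium and 1 of 5 macrophage markers fell. The part of these cells in the chaperone levels was not tested. In contralateral fat 6 of 18 rose on HFD (10 with no low-count filter) and 0 fell, beside 24.5% of all genes higher and 24.8% lower. The share that rose is not far from that of all genes. Among the 6 were Ero1l (0.45 ± 0.06), P4hb (0.41 ± 0.06) and the BiP exchange factor Sil1 (0.55 ± 0.08). In peritumoral fat 9 of 18 rose (6 to 11 with a library left out, 15 in the fit of all 24 libraries) and 0 fell, with a median of 0.36. Of all genes there, 16.4% were higher and 17.2% lower. Manf was among those that rose, at 0.75 ± 0.13 (adjusted p = 0.0025). Macrophage markers in peritumoral fat summed to 1110 to 1640 CPM on HFD and 530 to 946 CPM on Chow, and 3 of 5 rose. Cycling markers summed to 150 to 438 CPM on HFD and 37.3 to 174 CPM on Chow, and 3 of 4 rose. Also there, 1 of 4 tested plasma cell and 1 of 5 fibroblast markers rose. Of mammary epithelium markers 4 of 5 fell, as did 1 of 4 endothelium markers. The part of these cells in the levels of Hspa5 and this list was not tested. The interaction of diet with tumor bearing was called positive for 13 of 18 and negative for 0, beside 9.94% of all genes each way. With all 24 libraries in 1 fit it was called positive for 7 of 18.

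**Figure D4:**
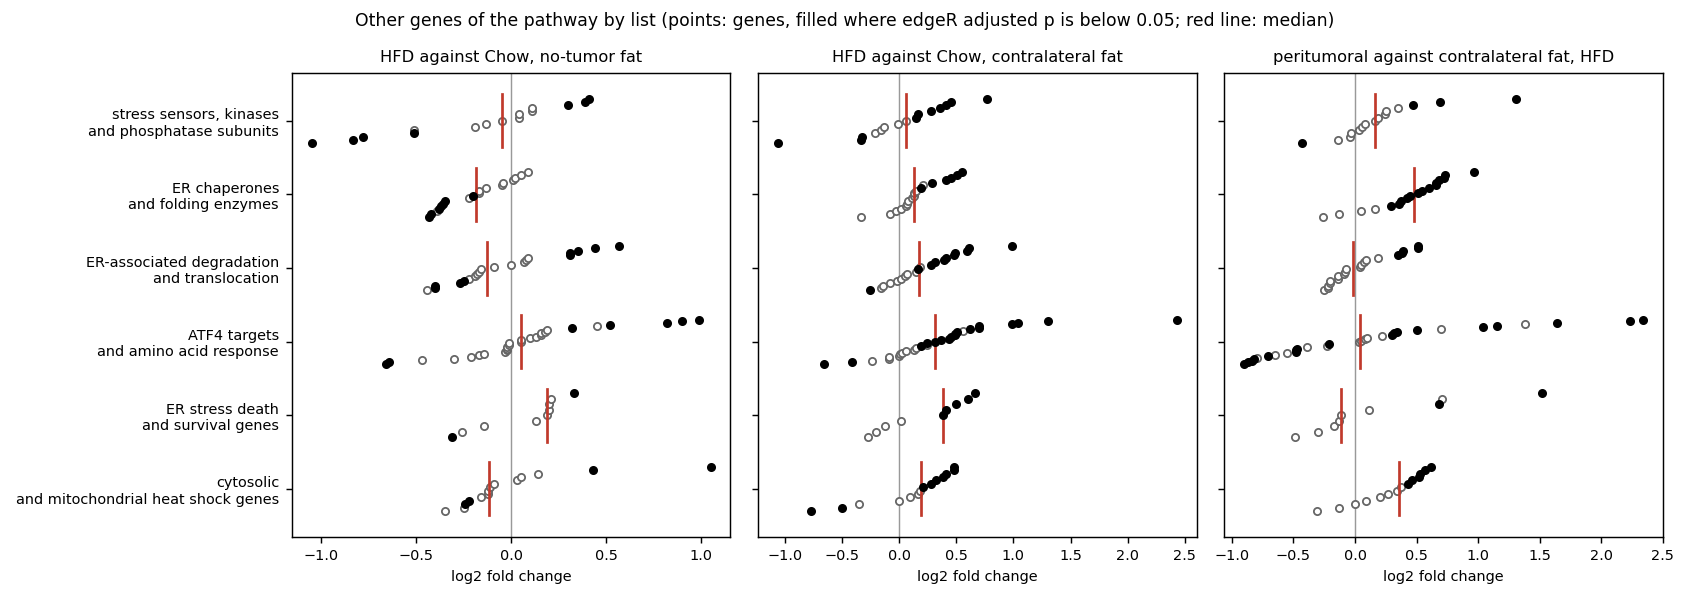
log2 fold changes (x axis) of the genes of 6 pathway lists (rows) for diet in no-tumor fat, diet in contralateral fat, and peritumoral against contralateral fat on HFD (panels), with filled points at edgeR's adjusted p below 0.05 and a red line at each list's median. The median of the chaperone list lies left of 0 for diet in no-tumor fat, at -0.18, and right of it for tumor side on HFD, at 0.48.

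HFD peritumoral libraries also held more RNA of other cells. Macrophage markers (Adgre1, Csf1r, Cd68, Fcgr1 and Mrc1) summed to 1110 to 1640 CPM in HFD peritumoral fat, against 577 to 694 CPM in HFD contralateral fat, and 5 of 5 rose. Cycling markers (Mki67, Top2a, Cdk1 and Birc5) summed to 150 to 438 CPM in HFD peritumoral fat, against 42.2 to 83 CPM in HFD contralateral fat, and 4 of 4 rose. Adipocyte markers summed to 5590 to 10900 CPM near the tumor, against 11500 to 13100 CPM contralaterally, and 4 of 5 fell. Of 6 plasma cell markers 4 were tested and 2 rose, and their sums overlapped at 51.7 to 204 CPM near the tumor, against 31.3 to 55.9 CPM contralaterally. No marker of these lists was at 0 throughout a group, and the part of these cells in the chaperone levels was not tested.

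Genes of ER-associated degradation and translocation moved in both directions with diet in no-tumor fat, while those called at the other positions mostly rose. For diet in contralateral fat 10 of 20 rose and 1 fell, with a median of 0.18, beside 24.5% of all genes higher and 24.8% lower. Edem1, which steers misfolded glycoproteins to degradation, stood at 201, 192, 189 and 214 CPM on HFD, against 89.7, 99, 104 and 96.7 CPM on Chow, and rose by 0.99 ± 0.06 (adjusted p = 8.91e-07). The lectin Os9 and the adaptor Sel1l of the same route rose by 0.49 ± 0.06 and 0.48 ± 0.06, while the ligase gene Syvn1 (HRD1) fell by 0.25 (SE 0.08, adjusted p = 0.0188). It was the 1 gene that fell, and the count of those lower was 0 with no low-count filter, in the fit of all 24 libraries, and without Chow contralateral replicates 2 or 3 or HFD contralateral replicate 3. In no-tumor fat 5 of 20 rose on HFD and 4 fell, beside 13.6% and 11.3% of all genes. Edem1 (0.57 ± 0.06), Sel1l (0.35 ± 0.06) and Os9 (0.31 ± 0.06) rose there, whereas the signal peptidase subunit Spcs2, the translocon-associated Ssr1 and Derl1 fell by 0.40, 0.27 and 0.40 (SE 0.07, 0.06 and 0.10). For diet in peritumoral fat 5 of 20 rose and 0 fell, with a median of 0.17, beside 16.4% and 17.2% of all genes. With a library left out, 4 to 7 rose and 0 to 2 fell. Next to the tumor on HFD 5 of 20 rose relative to contralateral fat and 0 fell, beside 16.8% and 12.7% of all genes. Among these 5 were Spcs2 (0.51 ± 0.09), the translocon channel Sec61a1 (0.38 ± 0.07) and Ssr3 (0.39 ± 0.08).

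ATF4 targets and amino acid genes were counted next. In contralateral fat 16 of 29 tested rose on HFD and 2 fell, with a median of 0.31, beside 24.5% of all genes higher and 24.8% lower. The count of those lower was 0 with no low-count filter and in the fit of all 24 libraries, and 1 without any 1 of the Chow contralateral libraries or HFD contralateral replicates 2 or 3. Of these, the serine synthesis gene Psat1 had the lowest adjusted p. It stood at 96.4, 92.5, 82.3 and 102 CPM on HFD, against 36.6, 36.5, 38.7 and 35.9 CPM on Chow, and rose by 1.30 ± 0.07 (adjusted p = 4.86e-07). Phgdh rose by 0.99 ± 0.10 and Atf5, a relative of Atf4, by 0.62 ± 0.07. Stc2 and Gpt2 fell by 0.66 and 0.41 (SE 0.18 and 0.15). The hormone gene Fgf21, picked after its value was seen, rose by 2.43 ± 0.49 (adjusted p = 0.00168). In peritumoral fat 14 of 29 rose on HFD and 3 fell, with a median of 0.38, beside 16.4% and 17.2% of all genes, and without Chow peritumoral replicate 1 the count of those higher was 9. In no-tumor fat 5 of 27 rose and 2 fell, shares near the 13.6% and 11.3% of all genes. Psat1 and Phgdh rose by 0.90 ± 0.09 and 0.99 ± 0.14 there. The count of those higher was 9 without Chow no-tumor replicate 2. That of those lower ran from 0 to 3 with a library left out: it was 0 without HFD no-tumor replicates 2, 3 or 4, and 1 without HFD no-tumor replicate 1 or Chow no-tumor replicates 1 or 3.

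Between HFD peritumoral and HFD contralateral fat 9 of 30 genes of this list rose and 9 fell, beside 16.8% of all genes higher and 12.7% lower. With a library left out, 5 to 11 rose and 4 to 11 fell. The lowest counts of both, 5 higher with 4 or 5 lower, came without HFD contralateral replicates 2 or 3, and 5 fell without HFD peritumoral replicates 2 or 3. The cystine exchanger Slc7a11 stood at 2.36, 6.44, 9.17 and 6.72 CPM in peritumoral libraries, against 1.21, 1.29, 0.616 and 1.75 CPM in contralateral libraries, and rose by 2.34 ± 0.43 (adjusted p = 0.00559). The amino acid transporter Slc7a5 stood at 9.73, 48.8, 20.2 and 31.2 CPM in peritumoral libraries, against 7.5, 6.82, 5.42 and 3.88 CPM in contralateral libraries, and rose by 2.23 ± 0.44 (adjusted p = 0.0077). The folate enzyme Mthfd2 rose by 1.64 ± 0.33 (adjusted p = 0.0084). The same libraries were lower in Phgdh, which fell by 0.87 (SE 0.17, adjusted p = 0.00649), in the mTOR inhibitor Ddit4, by 0.71 (SE 0.15), and in the lipoprotein receptor Vldlr, by 0.82 (SE 0.17). HFD peritumoral replicate 2, the highest in Atf4, Trib3 and Asns, was also the highest in Slc7a5, while replicate 1 was the lowest of the 4 in all of Slc7a11, Slc7a5 and Atf4. Replicate 2 had the highest sum of cycling markers (438 CPM) and the lowest of adipocyte markers (5590 CPM), and the part of these cells was not tested.

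Sensors and kinases changed one by one. On HFD the ER-anchored factor Nfe2l1 rose by 0.41 ± 0.06 in no-tumor, 0.77 ± 0.07 in contralateral and 0.43 ± 0.11 in peritumoral fat (adjusted p = 0.000229, 6.29e-06 and 0.0156). Ppp1r15b, a phosphatase subunit that reverses eIF2α phosphorylation, fell by 0.78 (SE 0.07) in no-tumor and by 0.33 (SE 0.07) in contralateral fat. Its stress-induced counterpart Ppp1r15a rose by 0.67 ± 0.16 in peritumoral fat (adjusted p = 0.00999). Between HFD peritumoral and HFD contralateral fat the double-stranded RNA kinase Eif2ak2 rose by 0.69 ± 0.10 (adjusted p = 0.00182) and Eif2s1, which encodes eIF2α, by 0.47 ± 0.13 (adjusted p = 0.0218). In all, 3 of 15 rose and 1 fell there (6 rose without HFD peritumoral replicate 1 and in the fit of all 24 libraries). Of all genes there, 16.8% were higher and 12.7% lower. For diet, 3 of 15 rose and 4 fell in no-tumor fat, beside 13.6% and 11.3% of all genes. In contralateral fat 7 rose and 3 fell, beside 24.5% and 24.8% of all genes.

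Death and survival genes of ER stress were few. For diet in contralateral fat 5 of 9 rose and 0 fell, beside 24.5% of all genes higher and 24.8% lower. Among the 5 were Tmbim6, an ER membrane inhibitor of BAX (0.50 ± 0.05), Wfs1 (0.60 ± 0.10) and Bcl2 (0.41 ± 0.08). Between HFD peritumoral and HFD contralateral fat 2 of 9 rose, and 1 without HFD contralateral replicates 2, 3 or 4 or HFD peritumoral replicates 3 or 4. Of all genes there, 16.8% were higher, a share not far from 2 of 9, and 12.7% lower. Pmaip1, the BH3-only gene for NOXA, stood at 3.09, 6.84, 5.31 and 5.75 CPM near the tumor, against 2.18, 1.54, 1.6 and 2 CPM contralaterally (1.52 ± 0.26, adjusted p = 0.00434), and Bcl2l11 rose by 0.68 ± 0.21 (adjusted p = 0.04). Cytosolic heat shock genes served for comparison. Of 14, 6 rose and 0 fell near the tumor on HFD, beside the same 16.8% and 12.7% of all genes, with a median of 0.35. Hspa8, the constitutive HSP70, stood at 539, 762, 579 and 626 CPM there, against 411, 445, 410 and 434 CPM contralaterally, and rose by 0.57 ± 0.12 (adjusted p = 0.00943). In contralateral fat 7 of 14 rose on HFD and 2 fell, beside 24.5% and 24.8% of all genes. The 2 that fell were Dnaja1 (by 0.50, SE 0.07) and the inducible Hspa1b (by 0.77, SE 0.13).

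The promoter matches shown above were set beside the counts. Of 49 genes with ERSE or ERSE-II, 25 were tested for tumor side on HFD, and 8 rose and 4 fell, with a median of 0.05 beside -0.02 over all genes, of which 16.8% were higher and 12.7% lower. Without the 3 members, 6 of 22 rose and 4 fell, not far from those shares. Those that rose were Pdia6, Creld2, Calr, Krtcap2, Canx and Dnajb11 beside Hspa5 and Hsp90b1, of which all but Krtcap2, a glycosylation subunit, encode ER chaperones or ER stress proteins. Other ER protein genes with a match did not pass, among them Dnajc3 (0.16 ± 0.08), Syvn1 (-0.08 ± 0.10) and Derl3 (-0.20 ± 0.32). Herpud1, with ERSE-II, had -0.17 ± 0.07 there, and Acacb, a fatty acid metabolism gene whose window also matches, fell by 0.79 (SE 0.19). For diet in no-tumor fat 3 of 25 rose and 8 fell, beside 13.6% and 11.3% of all genes. The 4 members with CARE did not move as a group near the tumor on HFD: Chac1 fell, while Herpud1, Trib3 (0.19 ± 0.24) and Asns (0.32 ± 0.16) did not pass the test.

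**Figure D5:**
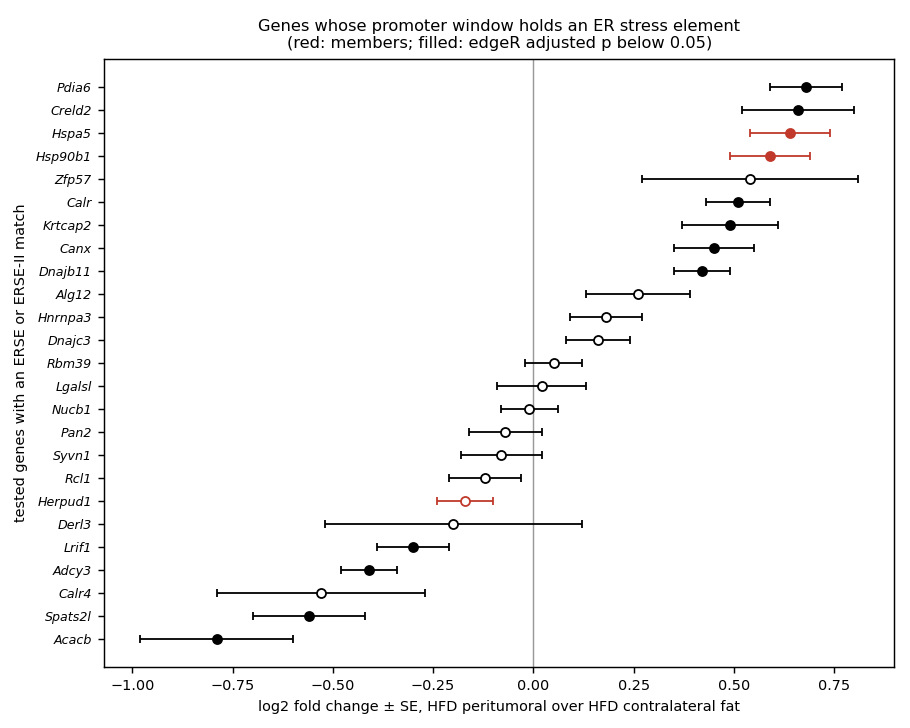
log2 fold change ± SE (x axis) of HFD peritumoral over HFD contralateral fat for the 25 tested genes (rows) whose promoter window holds ERSE or ERSE-II, with members in red and filled points at edgeR's adjusted p below 0.05. Pdia6, Creld2, Hspa5 and Hsp90b1 lie at the upper right, at 0.59 to 0.68, and Acacb lies at the lower left, at -0.79.

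The genes most like Hspa5 over the 24 libraries, by the Pearson correlation of log2 CPM among 11175 genes of at least 5 CPM, were Gla (0.963), Ccl2 (0.961), Efhd2 (0.959), Emp3 (0.959) and Dnajb11 (0.957), the last an ER chaperone. Those most like Atf4 were Eif3d (0.911), Atp8b2 (0.902), Tulp3 (0.902), Smg5 (0.884) and Rpl36al (0.883). For Trib3 they were Rhoc (0.908), Pttg1 (0.894), Ssr4 (0.885), Eif2b2 (0.884) and 1810009A15Rik (0.881). These values describe libraries that share group, depth and cell makeup. Within groups, Atf4 and Trib3 deviated together (r = 0.62), as did Herpud1 and Chac1 (r = 0.62), and Dnajb9 deviated opposite to Trib3 (r = -0.67) and Herpud1 (r = -0.63). Single libraries may weigh on these values. HFD peritumoral replicate 2 was the highest of its group in Atf4 (135.5 CPM) and Trib3 (8.736 CPM). Chow peritumoral replicate 4 was the highest of its group in Dnajb9 (33.81 CPM) and the lowest in Trib3 (1.755 CPM) and Herpud1 (51.59 CPM). Correlations without these libraries were not computed.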

How the data were processed

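The authors deposited a table of read counts per gene for 24 libraries, with an Ensembl identifier, mm10 coordinates and exon length per gene. Symbols were mapped from the Ensembl identifiers. TopHat, DESeq and mm10 are named per the submitters' processing notes, without versions. The counter and strand setting are not given in the sources used here. Deposited counts were used unchanged. Total counts were 9.13 to 18.2 M, and low counts limit precision for Trib3 and Chac1.

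Each comparison was fitted over its own groups with edgeR 4.0.16 (R 4.3.3, limma 3.58.1): TMM factors, filterByExpr with a minimum count of 10 and total of 15, a robust quasi-likelihood F test, and Benjamini-Hochberg adjustment over all genes tested at 0.05. SE is the absolute log2 fold change over the square root of F. The fits were tested on simulated data. Alternatives were DESeq2 1.42.0, no filter, a 1 CPM filter in 4 libraries, other scaling, 1 fit of all libraries, a replicate block and leaving out each library. Named genes were all 10 members and, from each list and comparison, up to 3 higher and 3 lower called genes of lowest adjusted p. Correlations used log2 CPM with a prior count of 2. The members and lists were chosen with earlier results of these data known.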

Additional observations from a re-analysis of the deposited data

Results flagged for a closer look

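In 4 of 60 sets of 4 libraries (10 genes in 6 groups), 1 library stood apart from the other three by Dixon's test at 95%, which chance gives in about 1 in 20 such sets. Trib3 stood at 8.74 CPM in HFD peritumoral replicate 2, against 4.29 to 4.78 CPM in the others of that group, and at 5.6 CPM in Chow no-tumor replicate 1, against 3.51 to 3.85 CPM. Dnajb9 stood at 33.8 CPM in Chow peritumoral replicate 4, the shallowest library, against 23.5 to 24.9 CPM. That library also had the highest sum of cycling markers in its group (174 CPM, against 37.3 to 92.3 CPM). On the first principal component it lay at 2.65, against -42.9 to -14.7 in the others of the group. The part of cell makeup in its levels was not tested. Herpud1 stood at 79.6 CPM in HFD contralateral replicate 1, against 75.2 to 75.5 CPM.

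The difference between contralateral and no-tumor fat itself differed between HFD and Chow, by edgeR's interaction test, for 5 members. The HFD difference minus the Chow difference was 0.92 for Trib3, 0.55 for Xbp1, 0.46 for Hsp90b1, 0.40 for Hspa5 and 0.34 for Atf4 on the log2 scale.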

How the results depend on the processing

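Of 90 member values, 23 were called and 11 of these kept their call and direction under every alternative. Among 1420 alternative values 71 lost a call and 33 gained one, and 0 changed sign where either value was called. Some values not called did, such as Trib3 for tumor side on HFD (0.19, and -0.11 at the lowest with a library left out). The number of members called for diet in peritumoral fat, 3, became 7 in the fit of all 24 libraries and 1 to 4 with a library left out. For tumor side on HFD, 3 became 2 to 5 with a library left out. For contralateral over no-tumor fat, the Chow count of 1 became 0 with the replicate block and 0 to 3 with a library left out. The HFD count of 1 became 3 with no filter, 3 by DESeq2, 0 with the block and 0 to 2 with a library left out. The interaction of diet with tumor bearing, 5, became 1 in the fit of all 24 libraries and 3 to 6 with a library left out. With a library left out, diet gave 3 to 4 in no-tumor and 5 to 7 in contralateral fat, and tumor side on Chow and its interaction with diet gave 0. Causes were not tested. Without the library rich in Gm42418, the contralateral diet count was 6 and that of the interaction with tumor bearing 4. With no filter the median of all genes shifted by -0.11 for diet in contralateral fat.

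Replicate numbers are shared between groups, but the labels do not say that they mark an animal. Deviations of same-numbered libraries correlated above 0.1 in 3 of 4 pairs for tumor side on HFD and in 0 to 2 of 4 elsewhere. With the replicate block, members called were 4, 6 and 2 for diet in no-tumor, contralateral and peritumoral fat, 3 and 0 for tumor side (HFD, then Chow), 0 for its interaction with diet, and 4 for that of diet with tumor bearing. The block ended the calls of Xbp1 for diet in peritumoral fat (adjusted p = 0.0733) and for tumor bearing on HFD (0.0518), of Trib3 for tumor bearing on Chow (0.064) and of Hspa5 for the interaction with tumor bearing (0.0503). Libraries correlated best with their own number in at most 2 of 4 pairs. Depth limits Trib3, with as few as 15 reads in a library.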
